A study of Canis lupus familiaris with 18 samples.

Results

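The comparison described here sets canine primary ECs (CaPECs) of the vena cava against CaPECs of the vena porta, with 3 samples of each vein, 6 of the 18 samples of the series. The members were taken by the vessel and the cell type in their labels, and no aortic sample entered the tests. The cells came from the abdominal vena cava and the portal vein of healthy young adult male dogs, whose vessels were left over from unrelated pacemaker research, and were sequenced at the third passage. Each culture was digested from the inner surface of an inverted vessel and grown on gelatin in an endothelial growth medium, without sorting by flow cytometry. The other samples are aortic CaPECs and vascular smooth muscle cells (VSMCs) of the same 3 kinds of vessel. CaPEC samples are numbered 1 to 3 within each vessel, and the number is taken as the dog. VSMC samples carry numbers of their own, which are not matched to those of the CaPECs. Polyadenylated RNA was sequenced, and the measurement is the number of reads counted on each gene.

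ECs regulate clotting, vascular tone, and the passage of immune cells from the blood into tissue. The vena cava returns blood of the lower body to the heart, while the vena porta carries blood from the gut and spleen to the liver. Both are veins, so the comparison asks how far CaPECs of the same venous class still differ by their place of origin after culture.

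The deposited table names genes by Ensembl identifier alone. None of its 24580 identifiers matched the gene table used here (0 matches), so no symbols, gene lengths, or sequences are given, and the cultures could not be checked against named endothelial markers. Total counts of the 6 samples ranged from 6169404 (vena porta 2) to 13422177 (vena porta 1), and each sample had 10857 to 11627 genes at 10 counts or more. The analysis of differences used 11333 genes that passed the filter on low counts. Pairs of samples from the same vein differed by 10.02 to 27.85 times what counting alone gives (median squared difference), so no replicate of a vein was within counting noise of another. Nothing in the labels says whether library batches differed.

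The 6 samples did not part cleanly by vein. On the first principal component of log2 CPM (counts scaled to the size of each library) in the 500 most variable genes, which held 68.2% of the variance, vena cava 1 and 3 lay at 58.0 and 50.4, and the 3 vena porta samples lay between -40.4 and -15.4. Vena cava 2 lay at -26.2, among the vena porta samples. On the second component (12.8%), vena cava 2 was the lowest sample at -24.0, with vena porta 3 at -13.2.

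**Figure D1:**
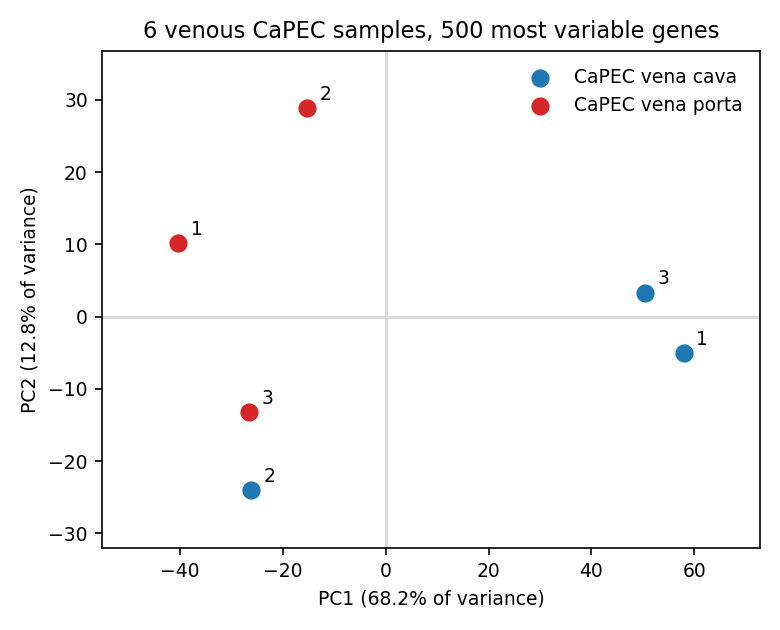
First and second principal component of the 6 venous CaPEC samples (log2 normalized CPM of the 500 most variable genes), where each point is a sample with its replicate number. Vena cava 1 and 3 are far to the right at 58.0 and 50.4, and vena cava 2 is at -26.2 among the vena porta samples.

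The same picture came from pairs of samples. Vena cava 1 and 3 differed by more than 1 on the log2 scale in 1335 genes (11.8% of the 11333 genes). Vena cava 2 differed that much from vena cava 1 in 2754 genes and from vena cava 3 in 2455 genes. Against the vena porta samples, vena cava 2 differed in fewer genes, 1307 for vena porta 1, 1724 for vena porta 2, and 1472 for vena porta 3. The biological coefficient of variation, which is the spread between samples as a share of the level, was 0.464 among the 3 vena cava samples and 0.344 among the 3 vena porta samples. Between vena cava 1 and 3 alone it was 0.285, and among the vena porta samples with vena cava 2 added it was 0.345. Of the variance in those 500 genes, 39.2% lay between the veins and 21.8% between the replicate numbers. These shares are not corrected for the number of groups. The 3 replicate numbers take a larger share than the 2 veins by their number alone, so 21.8% is not read as an effect of the dog. Without vena cava 2, the share of the vein was 72.2%.

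With all 6 samples, edgeR called no gene different between vena cava and vena porta CaPECs, while DESeq2 and limma did. At an adjusted p-value below 0.05 with an absolute log2 fold change above 0.4, edgeR's quasi-likelihood test called 0 of 11333 genes (0%), and the smallest adjusted p-value was 0.148. Before adjustment, 1019 genes (8.99% of those tested) had p below 0.05, 573 of them higher in the vena cava (5.06%) and 446 lower (3.94%). When replicate number was added as a block, again 0 genes were called (0%), the smallest adjusted p-value was 0.0587, and 669 genes (5.9%) had p below 0.05 before adjustment. At an unadjusted p-value below 0.05 with the same fold limit, which is the limit as the study words it, the count without the block was 1012. The block did not narrow the spread in CaPECs, where the coefficient of variation was 0.410 without it and 0.448 with it.

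The number of genes called differed between tools. DESeq2 also tested other genes than edgeR, while limma tested the same number. DESeq2's Wald test, the tool of the study, called 243 of 13416 genes (1.81%), 172 higher (1.28%) and 71 lower (0.529%) in the vena cava. In 193 of the 243 the 3 vena cava samples did not overlap the 3 vena porta samples, which the choice by p-value favors. Over the 11333 genes tested by edgeR, 13.8% did not overlap. Of these 243 genes, 188 were among those tested by edgeR, and the others were under its filter on low counts. With the block, DESeq2 called 244 genes. Limma with a weight for each sample called 2 genes, ENSCAFG00000011513 and ENSCAFG00000008310, which also lead the list below.

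It depended more on vena cava 2 than on any other sample. When that sample was left out, edgeR called 660 of 11656 genes (5.66%), 384 higher (3.29%) and 276 lower (2.37%) in the vena cava. When any other single sample was left out, 0 genes were called, with 565 to 1169 genes at an unadjusted p-value below 0.05. Without both samples numbered 2, 726 of 11590 genes were called (6.26%), 448 higher (3.87%) and 278 lower (2.4%), and with the block 577. The counts without vena cava 2 describe how 2 vena cava cultures differ from 3 vena porta cultures.

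**Figure D2:**
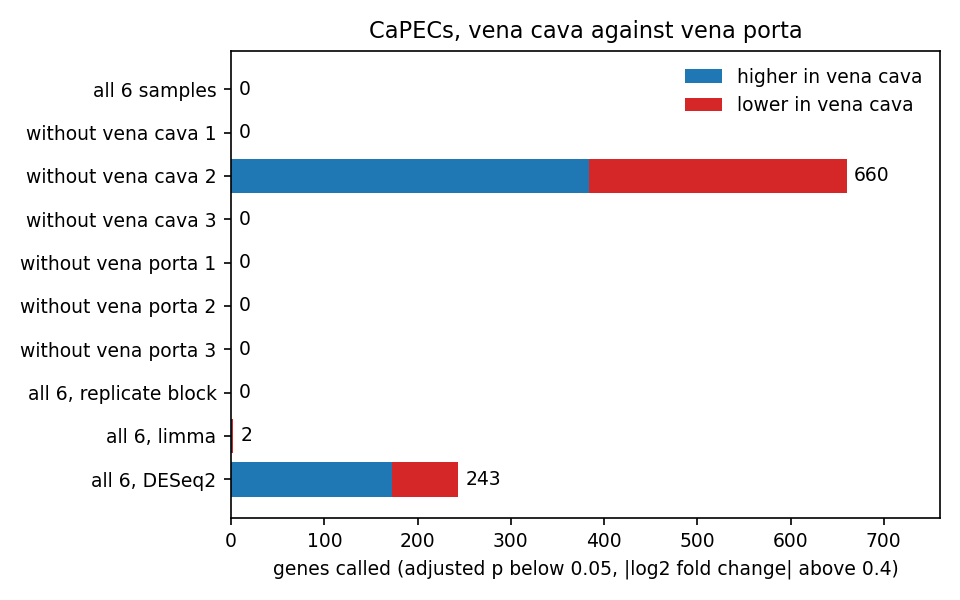
Number of genes called between vena cava and vena porta CaPECs (adjusted p-value below 0.05 and absolute log2 fold change above 0.4), with the bar split into genes higher and lower in the vena cava. The fits are edgeR's except the last 2 bars, and among the edgeR fits the one without vena cava 2 has 660 genes and the others have 0.

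In the genes called without it, vena cava 2 lay at the level of the vena porta. These genes were chosen on the other 5 samples, so the distance of vena cava 1 and 3 from the vena porta is fixed by the choice, and only the level of vena cava 2 is independent of it. The filter was also set on those 5 samples (11656 genes), so genes counted in vena cava 1 and 3 alone could enter. For some of the higher genes, vena cava 2 and the vena porta samples all had no count, so the difference of vena cava 2 is 0. For the 384 genes higher in the vena cava, the median difference from the mean of the 3 vena porta samples (log2 of CPM plus 1) was 2.37 in vena cava 1 and 2.23 in vena cava 3. It was 0.13 in vena cava 2, with the middle 50% of genes between -0.21 and 0.57. For the 276 lower genes, the median was -1.92 in vena cava 1, -1.75 in vena cava 3, and -0.11 in vena cava 2. The same vena porta samples enter each of these values.

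**Figure D3:**
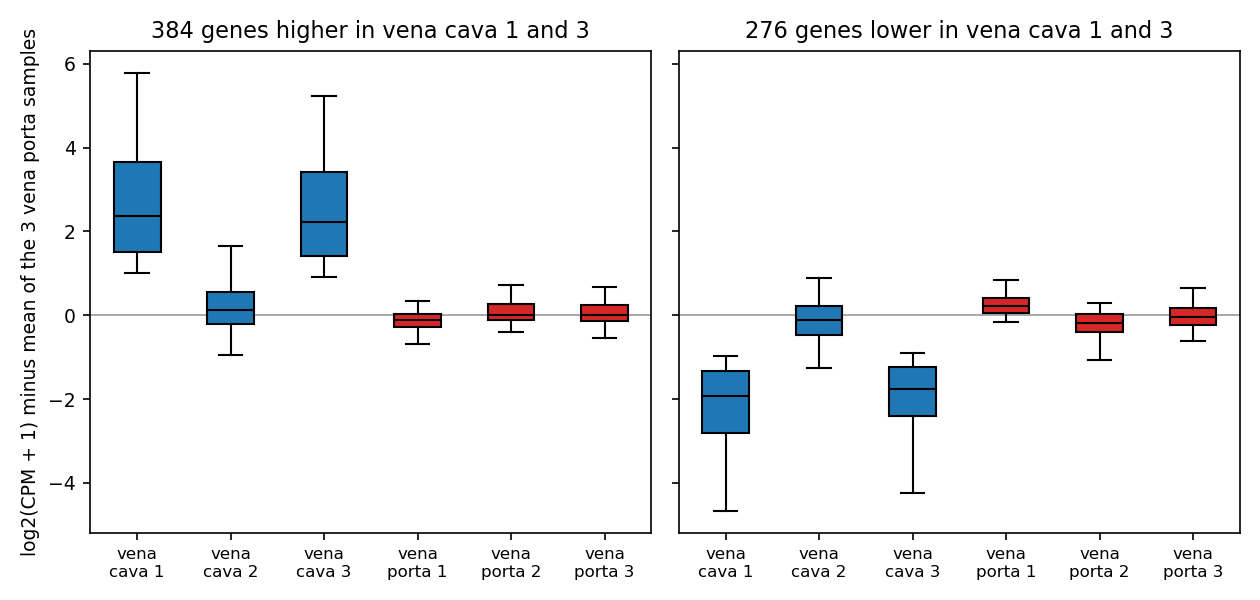
Difference of each venous CaPEC sample from the mean of the 3 vena porta samples (log2 of normalized CPM plus 1) for the 384 genes higher and the 276 lower in the vena cava without vena cava 2. Boxes span the middle 50% of genes with the median as a line, whiskers the 5th to 95th percentile, and vena cava 2 has medians of 0.13 and -0.11.

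Over all 11333 genes, vena cava 2 lay within the range of the 3 vena porta samples in 6142 genes (54.2%). Vena cava 1 did so in 3887 genes (34.3%) and vena cava 3 in 4287 genes (37.8%). Vena cava 2 was outside that range in the other genes, above it in 2680 and below it in 2511.

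Overlap between the veins was then counted gene by gene. In 1562 genes (13.8%) the 3 vena cava samples did not overlap the 3 vena porta samples, 800 with the vena cava higher (7.06%) and 762 with it lower (6.72%). With so few samples, a share of genes parts in this way even without a difference between the veins. Most of the differences in the 1562 genes were small, with a median log2 fold change of 0.56 in the higher and -0.70 in the lower genes. The log2 fold change was above 1 in 194 of the higher genes (1.71% of those tested) and below -1 in 228 of the lower genes (2.01%). It was above 2 in 95 of the higher genes (0.838% of those tested) and below -2 in 63 of the lower genes (0.556%). By level, the share without overlap was 16% of the 25 genes under 1 CPM and 12.8% of the 3059 genes between 1 and 10 CPM. It was 14% of the 6477 genes between 10 and 100 CPM. In the next range of that width on the log scale it was 14.7% of 1684 genes, and above that range 9.09% of 88 genes.

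Within these genes, vena cava 2 was mostly the vena cava sample nearest to the vena porta. It was the lowest of the 3 in 515 of the 800 higher genes (64.4%), and in 79 of the 95 that were higher by more than 2 on the log2 scale (83.2%). It was the highest of the 3 in 466 of the 762 lower genes (61.2%), and in 38 of the 63 that were lower by as much (60.3%). The median level of the 95 genes, as log2 of CPM plus 1, was 4.69, 2.04, and 4.54 in vena cava 1, 2, and 3, and 0.69 to 0.91 in the vena porta samples. That of the 63 genes was 0.54, 1.13, and 0.95 in vena cava 1, 2, and 3, and 2.51 to 3.05 in the vena porta samples.

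A few genes were counted in the CaPECs of 1 vein and nearly absent from the other. In 9 genes, each vena cava sample had at least 10 counts while the 3 vena porta samples together had at most 3. In 6 genes, each vena porta sample had at least 10 counts while the 3 vena cava samples together had at most 3. The highest level in these genes was 87.1 CPM in a vena cava sample and 9.65 CPM in a vena porta sample.

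The leading genes by p-value, 2 higher and 2 lower, were followed in every sample of the series. They were chosen for their difference between the veins and none was called by edgeR, so their fold changes describe these 6 samples. Their levels in aortic CaPECs and in VSMCs played no part in the choice. Levels here are CPM normalized over all 18 samples.

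ENSCAFG00000011513 was higher in the vena cava. It was at 112.5, 60.7, and 88.0 CPM in vena cava 1, 2, and 3, and at 9.39, 13.9, and 8.84 CPM in vena porta 1, 2, and 3. The groups did not overlap, and vena cava 2 was the lowest of its group. The means were 87.1 ± 25.9 and 10.7 ± 2.77 CPM (SD, n = 3 each), which is 3.04 ± 0.31 on the log2 scale (fold change ± standard error). The adjusted p was 0.148 from edgeR, 0.375 from edgeR with the block, and 1.47e-13 from DESeq2. Aortic CaPECs lay between the veins at 32.3 to 37.0 CPM. VSMCs had more of this transcript than any CaPEC sample, at 179.8 to 386.5 CPM (vena cava), 203.9 to 273.3 CPM (vena porta), and 456.3 to 515.0 CPM (aorta). In VSMCs the veins overlapped, with a log2 fold change of 0.24 ± 0.26.

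ENSCAFG00000010391 was also higher in the vena cava, at a lower level. It was at 7.52, 8.26, and 4.43 CPM in vena cava 1, 2, and 3, and at 0.675, 0.438, and 0.689 CPM in vena porta 1, 2, and 3. Here vena cava 2 was the highest of its group, and the groups did not overlap. The log2 fold change was 3.45 ± 0.47, on 208 counts in vena cava and 19 in vena porta samples. The adjusted p was 0.342 from edgeR, 0.613 from edgeR with the block, and 1.37e-05 from DESeq2. Aortic CaPECs were at 0 to 0.647 CPM, with 4 counts in all. VSMCs were again higher than CaPECs, at 31.9 to 64.8 CPM (vena cava) and 39.8 to 55.3 CPM (vena porta), which overlapped, with a log2 fold change of 0.13 ± 0.26. Aortic VSMCs were at 23.3 to 46.8 CPM.

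ENSCAFG00000008310 was lower in the vena cava and had the smallest p-value of all genes in edgeR without the block. It was at 5.93, 9.18, and 4.01 CPM in vena cava 1, 2, and 3, and at 74.2, 59.6, and 59.8 CPM in vena porta 1, 2, and 3. All vena cava samples were far below the lowest vena porta sample. The means were 6.37 ± 2.61 and 64.5 ± 8.37 CPM (SD, n = 3 each), which is -3.33 ± 0.33 on the log2 scale. The adjusted p was 0.148 from edgeR, 0.248 from edgeR with the block, and 3.31e-15 from DESeq2. Aortic CaPECs were at 6.83 to 17.8 CPM, below the vena porta samples as well. VSMCs were at 51.7 to 126.5 CPM (vena cava) and 85.6 to 102.1 CPM (vena porta), which overlapped, with a log2 fold change of -0.32 ± 0.34. Aortic VSMCs were at 91.9 to 134.8 CPM.

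ENSCAFG00000011945 was nearly absent from vena cava CaPECs. It had 1 count in the 3 vena cava samples, in vena cava 2, against 213 in the vena porta samples, where it was at 7.83, 9.65, and 3.56 CPM. The ratio of vena porta to vena cava from the summed counts was 219.0, with an exact 95% interval of 38.9 to 8690 that covers counting error only. The adjusted p-value was 0.342 from edgeR, 0.362 with the block, and 7.85e-06 from DESeq2. Aortic CaPECs had 10 counts in all, at 0 to 0.809 CPM. Venous VSMCs had more, at 16.1 to 24.1 CPM (vena cava) and 19.7 to 49.8 CPM (vena porta), which overlapped, with a log2 fold change of -0.76 ± 0.33. Aortic VSMCs, at 4.76 to 7.76 CPM, lay within the range of the vena porta CaPECs.

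**Figure D4:**
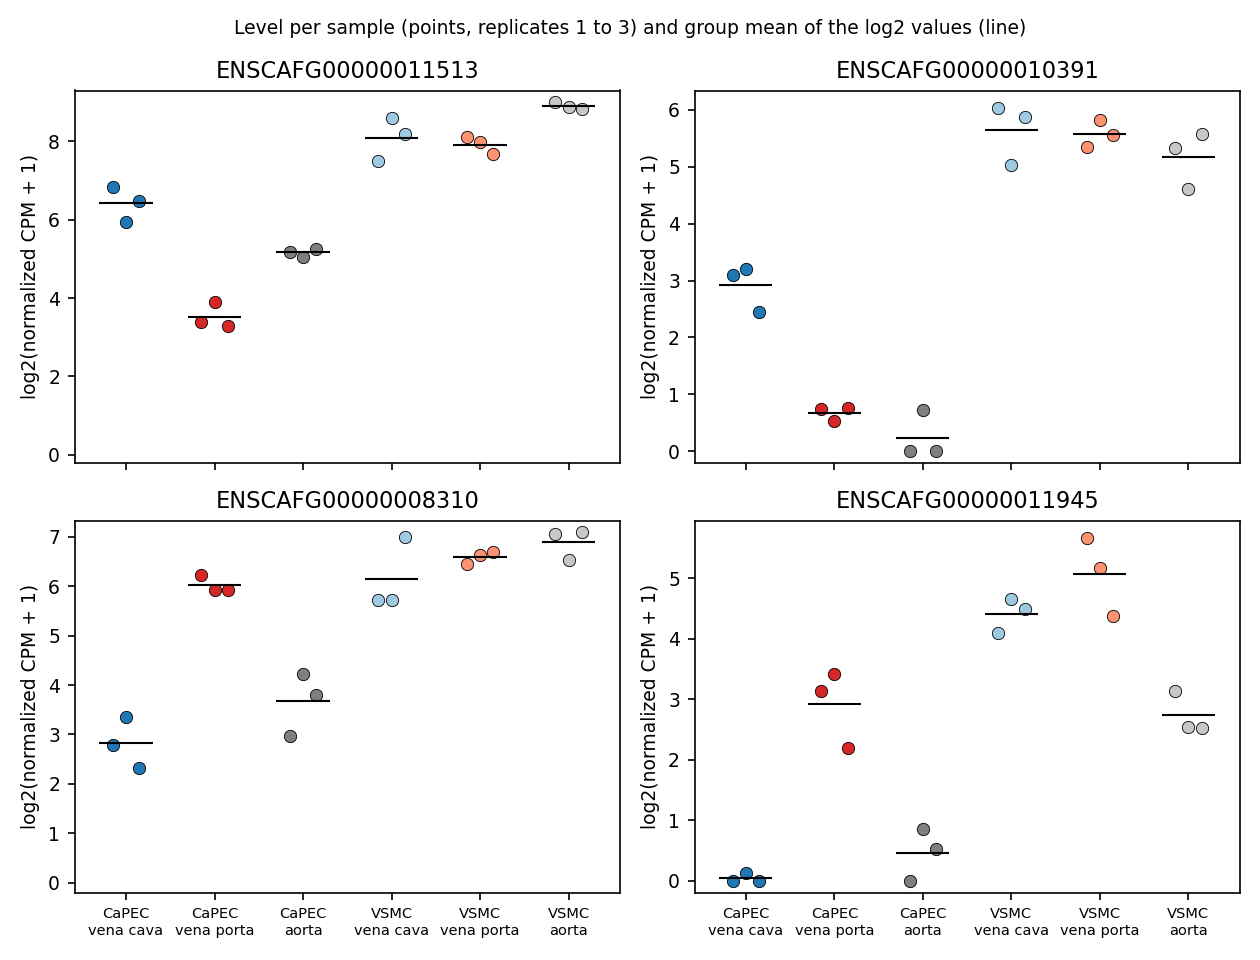
Level of the 4 genes in each of the 18 samples, as log2 of normalized CPM plus 1, by cell type and vessel, with the mean of the log2 values as a line. In CaPECs the vena cava and vena porta samples do not overlap in any of the 4 genes, while in VSMCs they overlap in all 4.

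A longer list of 20 higher and 20 lower genes was chosen in the same way, by their p-values in this comparison, so it describes and does not test. In all 20 of each the veins did not overlap, against 13.8% of all genes tested, and the choice by p-value favors such genes. The 20 higher genes had log2 fold changes from 0.96 to 8.48 (median 3.24) and mean levels from 2.84 to 259.7 CPM. The 20 lower genes had log2 fold changes from -8.34 to -1.02 (median -2.23) and mean levels from 1.04 to 1948 CPM. The median level of the 20 higher genes in aortic CaPECs, 3.08 to 3.61 as log2 of CPM plus 1, was below every vena cava sample (3.78 to 5.73) and above every vena porta sample (1.26 to 1.72). For the 20 lower genes, aortic CaPECs were at 4.18 to 4.78, between the vena cava (3.15 to 3.45) and the vena porta (4.93 to 5.49). VSMCs of every vessel also lay between the veins there, at 3.48 to 4.59. For the 20 higher genes VSMCs were at 3.83 to 4.52, above every vena porta sample and below vena cava 1 and 3. The genes were chosen as extremes between the veins, so other samples tend to lie in between by the choice.

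The same veins were compared in VSMCs, with 3 samples each. Over 11253 genes, edgeR called 2 genes (0.0178%), and 548 had p below 0.05 before adjustment (4.87%). The median absolute log2 fold change was 0.16 in VSMCs and 0.29 in CaPECs, and the coefficient of variation was 0.264 in VSMCs and 0.410 in CaPECs. With the block, 8 genes were called in VSMCs (0.0711%), 781 had p below 0.05 before adjustment (6.94%), and the coefficient of variation was 0.206. The 2 genes called without the block are named here after their values were seen. ENSCAFG00000002142 was at 8.95, 8.66, and 10.7 CPM in the vena cava VSMCs and at 107.7, 129.6, and 119.3 CPM in the vena porta VSMCs, without overlap. Its log2 fold change was -3.66 ± 0.15 (adjusted p = 8.32e-05 from edgeR), and in CaPECs it was -1.85 ± 1.09 (adjusted p = 0.638 from edgeR). ENSCAFG00000029087 was at 73.6, 54.2, and 50.3 CPM in the vena cava VSMCs and at 16.9, 12.9, and 13.0 CPM in the vena porta VSMCs, also without overlap. Its log2 fold change was 2.07 ± 0.20 (adjusted p = 0.0344 from edgeR), and in CaPECs it was -1.48 ± 0.85 (adjusted p = 0.636 from edgeR). When VSMC replicate 1, 2, or 3 was left out of both veins, ENSCAFG00000029087 was no longer called, at adjusted p-values of 0.250 to 0.650 from edgeR, while its log2 fold change was 2.01 to 2.12. ENSCAFG00000002142 was called in each of these fits.

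The log2 fold changes of CaPECs and VSMCs were set side by side over 10848 genes that passed both filters. Their Spearman correlation was -0.119 and their Pearson correlation -0.038, given as a description across genes, which are not independent, in cultures of the same 3 dogs. Of the 20 higher genes, 15 were tested in VSMCs, 7 of them with the same sign. All 20 lower genes were tested, 8 with the same sign. Over all 10848 genes, 45.6% had the same sign. The difference between the cell types was also tested directly, as the interaction of cell type and vein over the 12 venous samples. EdgeR called 0 of 11985 genes (0%), with a smallest adjusted p-value of 0.134, and 1162 genes had p below 0.05 before adjustment (9.7%). With the replicate number as a block within each cell type, 1 gene was called (0.00834%). Without the samples numbered 2 of each cell type, 212 genes were called in the interaction, and DESeq2 called 148 with all samples.

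Because markers could not be named, cell type was followed with genes split by cell type in the aorta, whose samples do not enter the comparison. These lists were set up after the data were seen and are not tested. At an adjusted p-value below 0.05 and a log2 fold change above 4 in edgeR, 181 genes were higher in aortic CaPECs and 205 in aortic VSMCs. The endothelial list may also hold genes of arterial ECs. Every venous CaPEC sample was far above VSMCs on the endothelial list, with a summed level of 5268 to 18588 CPM against 462.0 to 1067 in venous VSMCs. Every venous CaPEC sample was also below VSMCs on the smooth muscle list, with 3235 to 17248 CPM against 48553 to 76650.

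The summed levels of these lists differed among the venous CaPECs. On the endothelial list, vena cava 1 and 3 had the lowest sums, 6455 and 5268 CPM, while vena cava 2 had 17156 and the vena porta samples had 18588, 11449, and 12874. On the smooth muscle list, vena cava 1 and 3 had 17248 and 11717 CPM, vena cava 2 had 3235, and the vena porta samples had 3323, 4520, and 11585. Vena porta 3 was thus as high as vena cava 3 on the smooth muscle list. Without the most abundant gene of the smooth muscle list, the sums were 16668, 3053, and 11017 CPM in vena cava 1, 2, and 3, and 3010, 3690, and 11202 CPM in the vena porta. The median gene of each list gave another order, as log2 of CPM plus 1. On the endothelial list it was 2.07, 2.93, and 2.57 in vena cava 1, 2, and 3, and 3.12, 2.68, and 2.51 in vena porta 1, 2, and 3, so that vena cava 3 was above vena porta 3. On the smooth muscle list it was 1.498, 0.633, and 1.566 in the vena cava, and 0.69, 1.02, and 1.02 in the vena porta, so that vena porta 3 was below vena cava 3. Between 32 and 58 of the 205 smooth muscle genes had no count in a venous CaPEC sample, and between 14 and 30 of the 181 endothelial genes. In bulk samples, more cells of another type and more RNA of these genes per cell cannot be told apart, and the part of either in the differences between the veins was not tested.

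**Figure D5:**
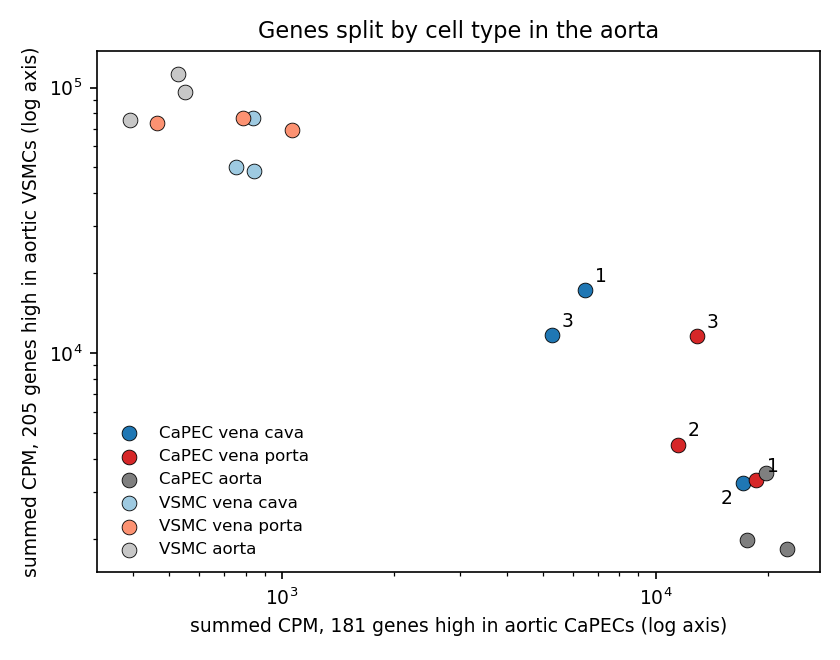
Summed normalized CPM of 181 genes higher in aortic CaPECs (x axis) and 205 genes higher in aortic VSMCs (y axis) in the 18 samples, on log axes, with replicate numbers on the venous CaPECs. Vena cava 1 and 3 have the lowest endothelial sums of the venous CaPECs, 6455 and 5268 CPM, and vena cava 2 is next to vena porta 1. The genes were chosen on the aortic samples, so the places of the aortic samples are fixed by the choice.

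Of the 181 endothelial genes, 141 passed the filter of the venous comparison, 10 of them higher and 18 lower in the vena cava at an unadjusted p-value below 0.05, with a median log2 fold change of -0.63. Of the 205 smooth muscle genes, 109 passed, 15 higher and 8 lower, with a median of 0.69. Over all 11333 genes, 5.06% were higher and 3.94% lower at that p-value, and the median was -0.01. None of these genes was called at the adjusted threshold in edgeR (0 of 11333 genes, 0%). The filter keeps a gene counted in a single vein, so some low genes can enter only through the vein where they are high. Such genes lie away from 0 by that choice, and the values describe only the genes that passed.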

How the data were processed

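Reads were aligned by the authors to canFam3 (CanFam3.1) with STAR 2.4.2a and counted per gene with HTSeq-count 0.6.1p1 in union mode, and raw counts were deposited without normalization. The annotation release and strand setting are not given in the sources used here, so overlapping genes and near-identical copies may share reads. Groups and replicate numbers were taken from the sample titles. Differences were tested on the 6 venous CaPEC samples alone, after TMM scaling and filterByExpr (minimum count of 10), by the quasi-likelihood F test of edgeR 4.0.16 under R 4.3.3, with Benjamini-Hochberg adjustment. Calls needed an adjusted p below 0.05 together with a log2 fold change of more than 0.4 in either direction. The fold limit is the study's, which words its other limit as a p-value below 0.05 and gives no block. DESeq2 1.42.0 and limma 3.58.1 (voomWithQualityWeights) were alternatives, as were the replicate block, RLE size factors, other filters and thresholds, and leaving out samples. Standard errors in edgeR were derived from the F statistic. Principal components used log2 CPM with a prior count of 2. The scripts were tested on simulated counts.

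The column names of the deposited CaPEC counts carry a number that the vessels share, and the paper states that the vessels came from the same 3 dogs. The pairing comes from both, and the labels do not say that the number is the dog. The deviations of same-numbered CaPEC samples of the 2 veins from their group means had correlations across genes of -0.277, -0.334, and -0.0159. VSMC numbers were used only among VSMCs. The p-values measure the spread between these cultures. The members and lists were chosen with earlier results of these data known. By the rule for named genes, without symbols the leading 2 genes by p-value that were higher and 2 that were lower were named. The 2 genes called in VSMCs and the gene called in the interaction with the block fall outside that rule and were named after their values were seen. Gene lists by symbol could not be used, because 0 identifiers matched (assembly UU_Cfam_GSD_1.0).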

Additional observations from a re-analysis of the deposited data

Results flagged for a closer look

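The difference between the veins differed between CaPECs and VSMCs in 1 gene when the replicate number entered edgeR's interaction test as a block within each cell type (adjusted p = 0.00471 from edgeR). Without the block, 0 genes passed. ENSCAFG00000016086 had 1590, 28, and 1397 counts in CaPECs of vena cava 1, 2, and 3, and 2, 0, and 2 counts in CaPECs of vena porta 1, 2, and 3. In VSMCs it had 0, 0, and 5 counts in vena cava 1, 2, and 3, and 1, 0, and 352 counts in vena porta 1, 2, and 3. In CaPECs the veins did not overlap, with vena cava 2 the lowest of its group, and in VSMCs nearly all counts came from vena porta 3. The gene is named after its values were seen, and its fit rests on groups near 0 counts.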

How the results depend on the processing

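The number of genes called between vena cava and vena porta CaPECs stayed at 0 with edgeR under the replicate block, RLE normalization, no low-count filter, and a minimum count of 50. Without the block it was also 0 with no fold limit and at an adjusted p-value below 0.1. With the block, 3 of 11333 genes had an adjusted p-value below 0.1 from edgeR, none of the 4 CaPEC genes among them. The number called was 243 with DESeq2, 244 with DESeq2 and the replicate block, 2 with limma, and 1012 at an unadjusted p-value below 0.05 with the fold limit. With replicates or single samples left out it ranged from 0 to 726, and with a replicate number left out under the block from 0 to 577. Among these edgeR fits, the 3 without vena cava 2 were above 0 (660, 726, and 577). In VSMCs the count was 8 with the block, 85 with DESeq2, 3 without the filter, and 1 to 1 with a replicate number left out. The interaction called 1 gene with the block, 148 with DESeq2, 0 with limma when each cell type had its own variance, and 0 to 212 with a replicate number left out. The share of variance by vein was 32.0% over all genes past the filter and 30.3% to 72.2% with single samples left out, a choice made after the data were seen, and that of the replicate number was 26.9% and 21.6% to 50.9%. Apart from the counts given, the replicate block changed no edgeR call on the 4 CaPEC genes or the 2 VSMC genes. The 4 CaPEC genes kept their direction in all 16 (2 genes) or 15 alternatives that tested them. They passed the threshold with DESeq2, with or without the block, and without vena cava 2 or both samples numbered 2, and 2 of them with limma. The exact permutation tests on marker sums were not run, since no symbols could be matched. Genes under the filter on low counts were tested in the edgeR fit without it (15499 genes, 0 called) and in part by DESeq2 (13416 genes). The fits with samples left out set the filter anew and also tested some of them (11656 genes in all without vena cava 2). How depth limits the genes under the filter was not measured.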
